A study of Mus musculus with 6 samples.

Results

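H19, Igf2, Igf2r, Afp, Gpc3, Cdkn1c, Peg3 and Dlk1 are imprinted genes or genes of the fetal liver that are known to return in some liver tumours. These 8 genes were taken by name from a table of 14499 genes, in which each had a single row. They were measured by RNA-seq of total liver RNA in 6 mouse libraries, 3 from mice with a hepatocyte-specific knockout of Arid1a and 3 from wild-type mice. Arid1a encodes a subunit of the BAF chromatin remodelling complex. The strain is given as C57Bl/6; 129Sv and the age as postnatal 10 weeks, and both groups had been injured for 2 weeks with DDC, a porphyrinogenic compound, so that no uninjured liver serves as a baseline here. The labels call the knockout hepatocyte-specific and do not name its Cre driver, and Arid1a was not measured by cell type. No label ties a library to a mouse of its own. Replicate 1 of each group lacked Y-linked transcripts that replicates 2 and 3 had, so each group holds RNA of more than 1 mouse, while nothing says whether replicates 2 and 3 of a group are separate mice. The p-values cover only the variation seen among these libraries.

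An imprinted gene is transcribed mainly from the copy inherited from the mother or mainly from the copy inherited from the father. In mouse, H19 (maternal) and Igf2 (paternal) lie next to each other, share enhancers, and are kept apart by a control region that binds the insulator protein CTCF. Both are abundant in the fetal liver and are switched off there after birth, as are Afp, Gpc3 and Dlk1. Zhx2 is known to take part in the postnatal repression of Afp, H19 and Gpc3 in mouse liver, and Zbtb20 in that of Afp.

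Of the members, 5 fetal-type transcripts had higher mean levels in knockout livers, and 0 of the members passed limma over all genes. H19 averaged 7.89-fold higher, Igf2 6.70-fold, Dlk1 6.23-fold, Gpc3 3.43-fold and Afp 1.94-fold, as ratios of mean FPKM (fragments per kilobase of transcript, scaled to the mapped fragments of each library). Igf2r and Peg3 had lower means. Cdkn1c also had a higher mean, 1.42-fold, but differed little beside its spread. A gene was tested where 3 or more of the 6 libraries, of either group, reached 1 FPKM, as did 5 members: H19, Igf2, Igf2r, Afp and Cdkn1c. Of these, Igf2 met the filter through 2 knockout libraries and 1 wild-type library. In limma on log2(FPKM + 1), 58 of 11839 genes (0.49%) passed a Benjamini-Hochberg adjusted p of 0.05, with 16 higher (0.135%) and 42 lower (0.355%) in knockout. Without the filter 0.28% did. At an unadjusted p under 0.05, 3 tested members were higher (H19, Igf2 and Afp) and 0 were lower, against 4.65% and 6.5% of all genes tested, or 11.1% in either direction. Of the members under the filter, Gpc3 and Dlk1 were higher at that level on the unfiltered table, where 4.37% of genes were higher and 10.4% passed in either direction. Across all 8 members, the groups did not overlap for 3 that were higher in knockout (H19, Gpc3 and Dlk1) and for 1 that was lower (Igf2r), against 6.88% and 8.97% of the 14285 genes with any FPKM above 0 (15.8% either way). Among the tested genes alone these shares were 7.09% and 9.56% (16.6% either way). In whole liver, fewer cells of a type and less RNA per cell cannot be told apart.

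**Figure D1:**
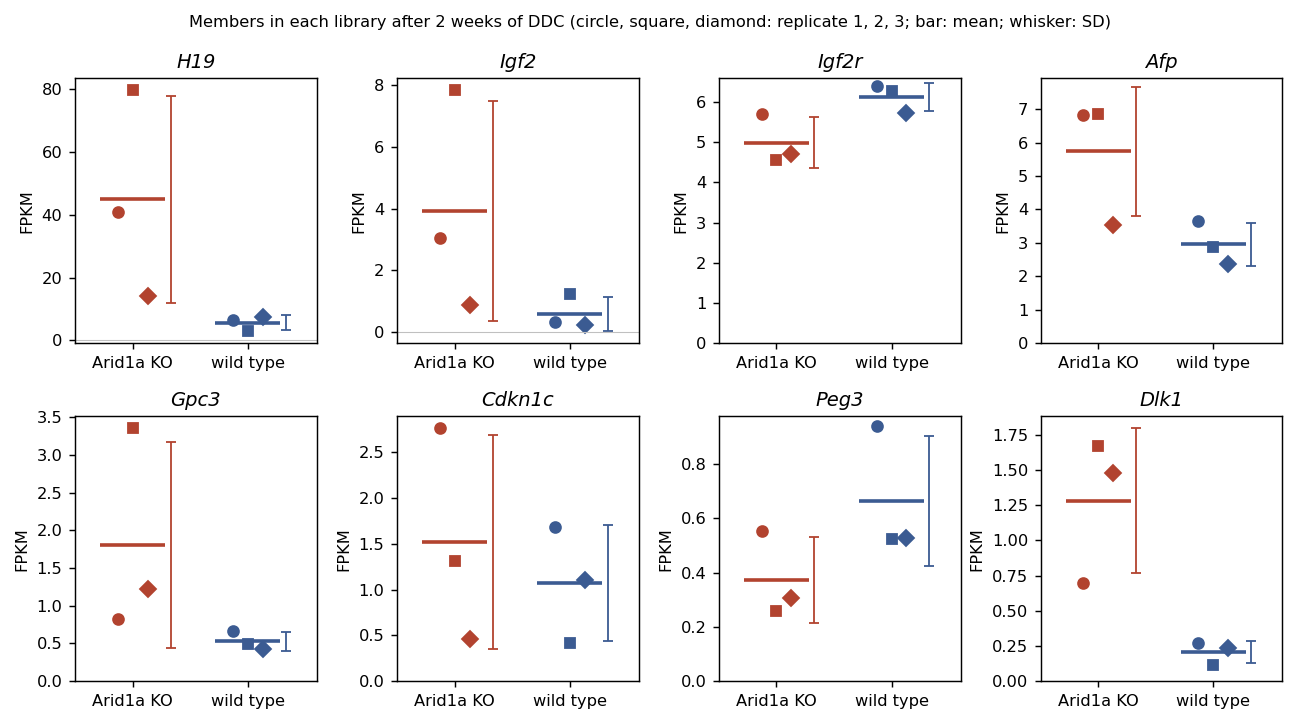
FPKM of the 8 members in each library, with Arid1a knockout left of wild type in each panel; symbols give the replicate, the horizontal bar the mean and the whisker the SD over 3 libraries. H19, Gpc3 and Dlk1 had every knockout library above every wild-type library, Igf2r had every knockout library below, and the groups of the other 4 members overlapped.

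H19 is a non-coding RNA (ENSMUSG00000000031, chromosome 7, 142575529 to 142578143, minus strand, GRCm38) and had the largest log2 difference of the tested members. It was at 41.0, 79.5 and 14.1 FPKM in knockout replicates 1, 2 and 3, against 6.57, 3.02 and 7.47 FPKM in wild-type replicates 1, 2 and 3. All knockout libraries lay above all wild-type libraries, and the lowest knockout value was 1.89-fold above the highest wild-type value. The means were 44.9 ± 32.9 FPKM in knockout and 5.69 ± 2.35 FPKM in wild type (SD, n = 3 libraries each). The log2 difference was 2.54 (SE 0.60), rank 9 from the top among the 11839 genes tested, with a limma adjusted p of 0.181. The exact two-sided permutation p was 0.1, the smallest that 3 against 3 libraries can give. Knockout replicates differed 5.64-fold among themselves and wild-type replicates 2.47-fold. With each library left out in turn the difference was 1.98 to 3.19, and the adjusted p over all alternatives was 0.126 to 0.428.

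Igf2 (ENSMUSG00000048583, chromosome 7, 142650766 to 142666816, minus strand), the fetal insulin-like growth factor, lies 72.6 kb from H19. It was at 3.04, 7.84 and 0.861 FPKM in knockout replicates 1, 2 and 3, against 0.328, 1.22 and 0.210 FPKM in wild-type replicates 1, 2 and 3. Knockout replicate 3 lay below wild-type replicate 2, so the groups overlapped. The means were 3.91 ± 3.57 FPKM in knockout and 0.584 ± 0.550 FPKM in wild type (SD, n = 3 each), with a log2 difference of 1.41 (SE 0.55, limma adjusted p = 0.420; exact permutation p = 0.2). Without knockout replicate 2 the difference was 0.85. The ratio of H19 to Igf2 FPKM was 13.5, 10.1 and 16.4 in knockout replicates 1, 2 and 3, against 20.04, 2.49 and 35.6 in wild-type replicates 1, 2 and 3. The knockout ratios lay within the range of the wild-type ratios. However, the ratios of wild-type replicates 1 and 3 rest on Igf2 at 0.328 and 0.210 FPKM. The counting error of such low values, and of the 0.861 FPKM in knockout replicate 3, is unknown.

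Both of these transcripts carry microRNAs, miR-675 within H19 and miR-483 within an intron of Igf2, on the same strand as the host. Their mature forms are shown because the level of the host RNA does not give that of the microRNA, which this assay did not measure. The sequences are from RefSeq (GRCm38.p6), 5′ to 3′, with the seed (bases 2 to 8) in capitals, and the 4 seeds all differ.
miR-675-5p (chr7:142577112-142577133, minus strand): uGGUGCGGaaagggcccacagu
miR-675-3p (chr7:142577078-142577099, minus strand): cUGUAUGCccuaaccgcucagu
miR-483-5p (chr7:142654968-142654989, minus strand): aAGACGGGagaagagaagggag
miR-483-3p (chr7:142654932-142654952, minus strand): uCACUCCUccccucccgucuu

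Igf2r (ENSMUSG00000023830, chromosome 17, 12682406 to 12769664, minus strand) encodes the mannose 6-phosphate receptor, which carries IGF2 to lysosomes for breakdown and in mouse is expressed from the maternal copy. It was the steadiest member. It was at 5.72, 4.55 and 4.71 FPKM in knockout replicates 1, 2 and 3, against 6.39, 6.28 and 5.74 FPKM in wild-type replicates 1, 2 and 3. All knockout libraries lay below all wild-type libraries, by a narrow margin between knockout replicate 1 and wild-type replicate 3. Igf2r had a log2 difference of -0.26 (SE 0.14, limma adjusted p = 0.562; exact permutation p = 0.1). The ratio of Igf2 to Igf2r FPKM was 0.532, 1.72 and 0.183 in knockout replicates 1, 2 and 3, against 0.0513, 0.194 and 0.0365 in wild-type replicates 1, 2 and 3. Knockout replicate 2 was the single library in which the growth factor exceeded this receptor.

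Among other IGF ligands, receptors and binding proteins, 0 of 13 tested genes rose or fell in limma. At an unadjusted p below 0.05, 1 stood higher and 0 lower, against 4.65% and 6.5% of all genes tested. The list had a median log2 difference of 0.10, beside 0.0034 over all genes tested. Igfbp2, a binding protein of IGF1 and IGF2, was at 222, 391 and 341 FPKM in knockout replicates 1 to 3, against 135, 121 and 164 FPKM in wild-type replicates 1 to 3. Its groups did not overlap, and it did not pass over all genes (log2 difference 1.15, SE 0.24, limma adjusted p = 0.136; it passed without knockout replicate 1, adjusted p = 0.0481, and over all alternatives it was 0.0481 to 0.389). Igfbp1, a binding protein that is induced in fasting, had a log2 difference of -0.61 (SE 0.29, limma adjusted p = 0.500). Igf1, the main postnatal growth factor of the liver, had a difference of 0.15 and Insr, the insulin receptor, of -0.06. M6pr, the other mannose 6-phosphate receptor, had a difference of 0.12. Igf1r was not analysed here. Igf2bp2 and Igf2bp3, counted with the fetal liver genes, encode RNA-binding proteins that bind IGF2 transcripts. Igf2bp3, which is largely fetal, was at 1.16, 1.15 and 0.598 FPKM in knockout replicates 1 to 3, against 0.126, 0.264 and 0.414 FPKM in wild-type replicates 1 to 3. Those groups did not overlap, but the gene was under the filter. Igf2bp2 was at 0.937 ± 0.446 FPKM in knockout and 1.79 ± 0.397 FPKM in wild type (SD, n = 3 each; log2 difference -0.54, limma adjusted p = 0.428).

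Afp (ENSMUSG00000054932, chromosome 5, 90490737 to 90508907, plus strand) encodes alpha-fetoprotein, the main serum protein of the fetus and a marker of liver cancer. It was at 6.83, 6.86 and 3.52 FPKM in knockout replicates 1, 2 and 3, against 3.64, 2.86 and 2.36 FPKM in wild-type replicates 1, 2 and 3. Knockout replicates 1 and 2 were high, while knockout replicate 3 lay just below wild-type replicate 1. Afp had a log2 difference of 0.74 (SE 0.26, limma adjusted p = 0.357; exact permutation p = 0.2), and of 0.60 without knockout replicate 2. Alb, the adult counterpart, was at 31217 ± 4037 FPKM in knockout and 29066 ± 2050.3 FPKM in wild type (SD, n = 3 each).

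Afp lies between Alb and Afm, both of the albumin family. Afm, a serum carrier of vitamin E, was the 1 gene of the lists described here that rose over all genes. It was at 152, 136 and 173 FPKM in knockout replicates 1, 2 and 3, against 62.1, 69.0 and 79.0 FPKM in wild-type replicates 1, 2 and 3. The groups were well apart (log2 difference 1.12, SE 0.16, limma adjusted p = 0.0447), but the gene no longer passed when any 1 library was left out (adjusted p 0.0698 to 0.173) or with no filter (0.0568). Alb and Gc, the vitamin D binding protein of the same family, had differences of 0.10 and 0.20 (limma adjusted p = 0.910 and 0.797). Afm starts 10.0 kb from Afp, and Alb ends 14.1 kb from it on the other side.

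**Figure D2:**
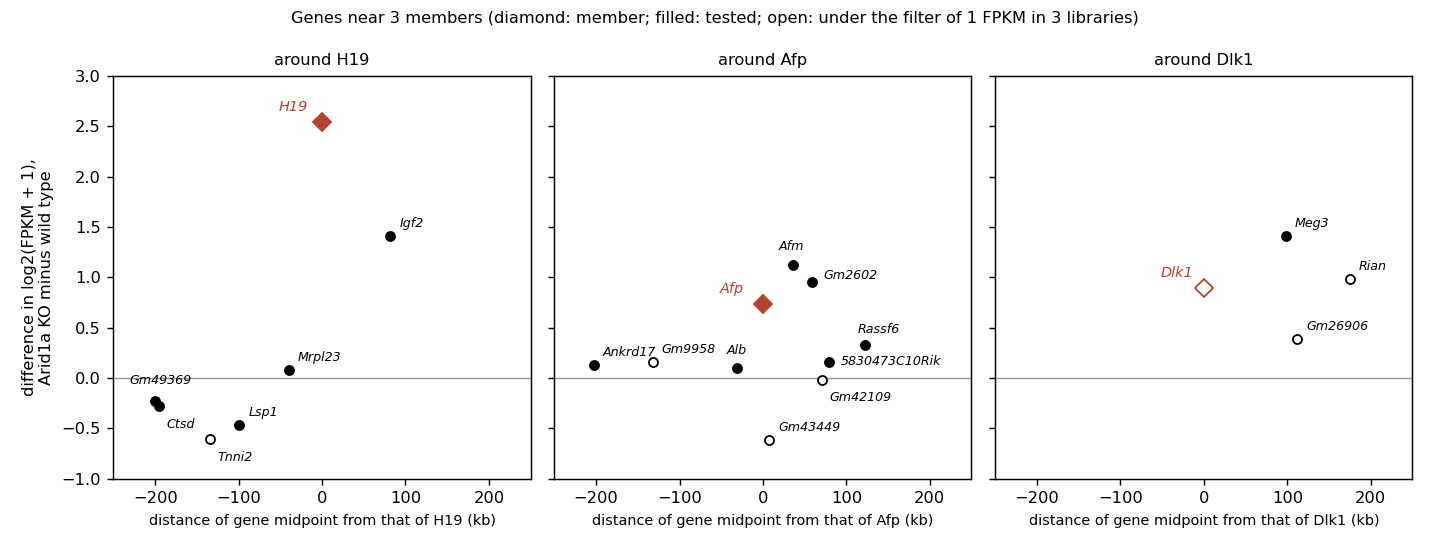
Difference in log2(FPKM + 1), knockout minus wild type, of genes whose ends lie within 200 kb of H19, Afp and Dlk1, by the distance between gene midpoints in kb. Igf2 (1.41), Afm (1.12) and Meg3 (1.41) were the highest near H19, Afp and Dlk1, and the other genes near H19 were between -0.60 and 0.08.

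Over the surroundings of all 8 members, 38 other genes of the table lay within 200 kb and 22 were tested. Of these, 1 rose (Afm) and 0 fell by limma, against 0.49% of all genes tested in either direction. An unadjusted p under 0.05 was found for 3 of the 22, against 11.1% of all genes tested. The median log2 difference of the 22 was 0.09. Beside H19, Mrpl23 had a difference of 0.08 and Lsp1 of -0.46, on the side of H19 away from Igf2. Around Cdkn1c, the imprinted genes Slc22a18, Phlda2 and Nap1l4 had differences of 0.21, 0.03 and 0.01.

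Gpc3 (ENSMUSG00000055653, chromosome X, 52272426 to 52613950, minus strand) encodes glypican-3, a heparan sulphate proteoglycan of the cell surface and a marker of human liver cancer. It was at 0.822, 3.36 and 1.22 FPKM in knockout replicates 1, 2 and 3, against 0.664, 0.487 and 0.424 FPKM in wild-type replicates 1, 2 and 3. Every knockout library exceeded every wild-type library, with knockout replicate 1 only 1.24-fold above the highest wild-type value. The gene is under the filter. On the unfiltered table Gpc3 had a log2 difference of 0.77 (SE 0.32, limma adjusted p = 0.477; exact permutation p = 0.1), and without knockout replicate 2 it was 0.40. Gpc4, its neighbour and family member, was at 13.8 ± 1.85 FPKM in knockout and 15.2 ± 0.833 FPKM in wild type (SD, n = 3 each; log2 difference -0.14, limma adjusted p = 0.757). Of the glypicans and syndecans, 5 of 9 listed were tested, 0 passed limma either way, 0 had an unadjusted p under 0.05, and the median was -0.14.

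Dlk1 (ENSMUSG00000040856, chromosome 12, 109452823 to 109463336, plus strand) encodes a transmembrane protein related to Notch ligands that marks hepatoblasts in mouse. It was at 0.700, 1.67 and 1.48 FPKM in knockout replicates 1, 2 and 3, against 0.268, 0.116 and 0.235 FPKM in wild-type replicates 1, 2 and 3. The lowest knockout value was 2.61-fold above the highest wild-type value, the widest such ratio among the 8 members, at levels that are low in every library. The gene is under the filter because it reached 1 FPKM in 2 libraries. On the unfiltered table Dlk1 had a log2 difference of 0.90 (SE 0.20, limma adjusted p = 0.177; exact permutation p = 0.1), and with each library left out 0.77 to 1.10. With a pseudocount of 0.1 in place of 1 it was 2.13, and with 5 it was 0.27. Meg3 and Rian are non-coding RNAs of the same imprinted domain that are expressed from the maternal copy, opposite to Dlk1. Meg3 was at 2.28, 24.0 and 2.61 FPKM in knockout replicates 1, 2 and 3, against 1.79, 0.722 and 2.28 FPKM in wild-type replicates 1, 2 and 3. Rian was at 0.862, 6.94 and 0.805 FPKM in knockout replicates 1, 2 and 3, against 1.05, 0.00855 and 0.670 FPKM in wild-type replicates 1, 2 and 3. Both were high in knockout replicate 2 alone, whereas Dlk1 exceeded every wild-type library in each knockout library, most in replicates 2 and 3. Meg3 had a log2 difference of 1.41 (SE 0.77, limma adjusted p = 0.560), and of 0.46 without knockout replicate 2.

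RefSeq promoter windows, of 250 bases before to 50 bases after the gene start, were found for 6 of the 8 members, with 4 windows for Igf2. The windows of Afp, Gpc3 and Dlk1 are shown because these fetal transcripts had higher means in the same livers while their promoters are of unlike composition. Afp has 3 CG dinucleotides, Gpc3 has 30 and Dlk1 has 9, and 23.3%, 88.3% and 54.2% of all 32851 windows have fewer. In Afp the capitals mark the HNF1 half-site GTTAAT, named for a hepatocyte transcription factor, and the core promoter motif TATAAA. They begin at positions -105 and -7 from the RefSeq start of this window (90490714), which lies 23 bases before the GENCODE start given above, and at -128 and -30 from the GENCODE start. In Gpc3 and Dlk1 the capitals mark CG. Searched as exact matches on both strands, the half-site occurs in 7.1% of all windows and the core promoter motif in 13.62%. Variants of these motifs were not searched for, so unmarked bases may hold them. The other 8 windows of the members hold neither. In Afp the matches do not overlap.
Afp (chr5:90490464-90490763, plus strand, GRCm38.p6): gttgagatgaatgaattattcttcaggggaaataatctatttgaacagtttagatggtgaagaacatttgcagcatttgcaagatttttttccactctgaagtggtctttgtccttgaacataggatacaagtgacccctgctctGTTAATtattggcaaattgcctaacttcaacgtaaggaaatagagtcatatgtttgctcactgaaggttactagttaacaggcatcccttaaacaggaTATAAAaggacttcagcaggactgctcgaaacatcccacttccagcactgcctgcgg
Gpc3 (chrX:52613925-52614224, minus strand, GRCm38.p6): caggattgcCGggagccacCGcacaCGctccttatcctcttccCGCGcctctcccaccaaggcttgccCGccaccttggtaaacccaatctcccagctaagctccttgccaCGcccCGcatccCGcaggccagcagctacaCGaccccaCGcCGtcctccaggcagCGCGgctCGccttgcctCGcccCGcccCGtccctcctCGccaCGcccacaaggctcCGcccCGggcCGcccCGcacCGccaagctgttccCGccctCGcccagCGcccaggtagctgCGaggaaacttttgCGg
Dlk1 (chr12:109452573-109452872, plus strand, GRCm38.p6): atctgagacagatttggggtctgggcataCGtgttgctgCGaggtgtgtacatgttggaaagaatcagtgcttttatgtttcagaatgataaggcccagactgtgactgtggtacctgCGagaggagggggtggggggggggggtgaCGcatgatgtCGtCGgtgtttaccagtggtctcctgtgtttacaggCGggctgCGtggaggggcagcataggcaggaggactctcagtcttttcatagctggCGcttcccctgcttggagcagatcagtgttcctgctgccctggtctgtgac
The 4 windows of Igf2 hold 2, 14, 24 and 7 CG dinucleotides in the order of transcription, and a gene-level FPKM does not tell which of its promoters was used.

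Cdkn1c (ENSMUSG00000037664, chromosome 7, 143458339 to 143461050, minus strand) encodes p57, an inhibitor of cyclin-dependent kinases that is expressed from the maternal copy. It was at 2.77, 1.32 and 0.457 FPKM in knockout replicates 1, 2 and 3, against 1.68, 0.420 and 1.11 FPKM in wild-type replicates 1, 2 and 3. The groups overlapped widely, and replicate 1 was the highest of each. Cdkn1c had a log2 difference of 0.22 (SE 0.39, limma adjusted p = 0.872; exact permutation p = 0.7), and its sign turned to -0.12 without knockout replicate 1 and to -0.03 without wild-type replicate 2. Of 6 other CDK inhibitors tested, 0 passed limma, and their median was -0.18. At an unadjusted p below 0.05, 1 stood lower and 0 higher, against 6.5% and 4.65% of all genes tested. Cdkn1a and Cdkn1b, which encode p21 and p27, had differences of 0.43 and -0.14 (limma adjusted p = 0.545 and 0.772). The gene lower at an unadjusted p, Cdkn2a, was chosen after its values were seen and was at 0.279 ± 0.119 FPKM in knockout and 1.75 ± 0.460 FPKM in wild type (SD, n = 3 each; log2 difference -1.09, SE 0.19, limma adjusted p = 0.0859).

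Peg3 (ENSMUSG00000002265, chromosome 7, 6703892 to 6730431, minus strand) encodes a zinc finger protein expressed from the paternal copy. It was at 0.553, 0.258 and 0.305 FPKM in knockout replicates 1, 2 and 3, against 0.941, 0.524 and 0.530 FPKM in wild-type replicates 1, 2 and 3. Replicate 1 was the highest in each group, and knockout replicate 1 overlapped the wild-type values. The gene never reached 1 FPKM. On the unfiltered table Peg3 had a log2 difference of -0.28 (SE 0.16, limma adjusted p = 0.599; exact permutation p = 0.3), and -0.16 without wild-type replicate 1.

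**Figure D3:**
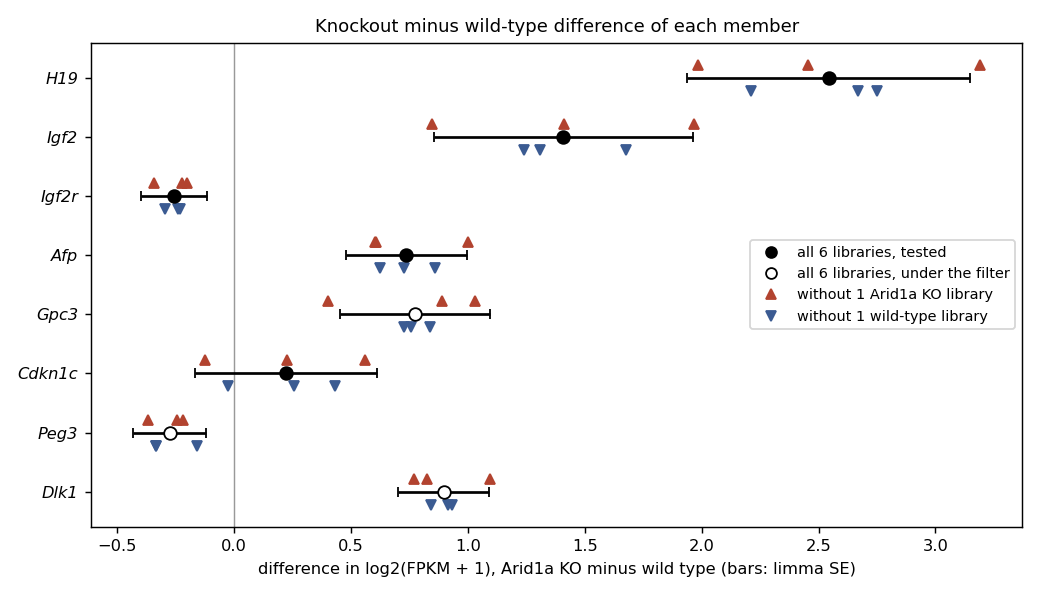
Difference in log2(FPKM + 1), knockout minus wild type, of each member with all 6 libraries (circles, bars of 1 limma SE; open circles for members under the filter, fitted on the unfiltered table) and with each library left out (triangles). The differences of H19, Igf2, Afp, Gpc3 and Dlk1 stayed above 0 and those of Igf2r and Peg3 below 0 with any 1 library left out, while that of Cdkn1c crossed 0.

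The order of levels differed between the groups. In knockout livers mean FPKM ran from H19 through Afp, Igf2r, Igf2, Gpc3, Cdkn1c and Dlk1 to Peg3. In wild-type livers it ran from Igf2r through H19, Afp, Cdkn1c, Peg3, Igf2 and Gpc3 to Dlk1. In knockout, H19 lay clear of Afp and Dlk1 lay clear of Peg3, while all neighbours between Afp and Dlk1 had overlapping ranges. In wild type, Afp lay clear of Cdkn1c and Gpc3 of Dlk1, and the other neighbours overlapped. Among all 14499 genes, H19 ranked at percentiles 88.2, 91.95 and 71.4 in knockout replicates 1 to 3, against 56.01, 38.9 and 58.2 in wild-type replicates 1 to 3. Dlk1 ranked at percentiles 14.9, 27.6 and 28.02 in knockout replicates 1 to 3, against 7.61, 4.99 and 6.65 in wild-type replicates 1 to 3.

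Knockout replicate 2 was the highest of the 6 libraries for 5 of the 8 members (H19, Igf2, Afp, Gpc3 and Dlk1) and the lowest for 2 (Igf2r and Peg3). Relative to the wild-type mean, it had 14.0-fold of H19, 13.4-fold of Igf2 and 6.40-fold of Gpc3. Knockout replicate 3 had 2.48-fold of H19, 1.47-fold of Igf2 and 2.32-fold of Gpc3, but 7.17-fold of Dlk1. The spread of the fetal members among knockout livers was thus not the same for each gene.

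Replicate 1 of both groups lacks Y-linked transcripts, with Ddx3y at 0.0227 FPKM in the knockout and 0.0527 FPKM in the wild-type library, against 9.27 to 11.3 FPKM in replicates 2 and 3, and carries library numbers apart from the others. The knockout minus wild-type difference of H19 was 2.47 in replicate 1 (1 library a group) and 2.58 in replicates 2 and 3. That of Igf2 was 1.61 and 1.31, and that of Afp was 0.75 and 0.73. Gpc3 differed by 0.13 in replicate 1 and 1.10 in replicates 2 and 3, and Dlk1 by 0.42 and 1.13. With 1 library a group in replicate 1, the spread for a test of this split comes from replicates 2 and 3 alone (limma SE of the interaction 1.48 for H19), so whether the differences vary between the replicates cannot be judged from it.

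With all 6 libraries, no imprinted, fetal liver or regulator gene outside the members passed limma over all genes. Without knockout replicate 2, the imprinted gene Copg2, chosen after its values were seen, did (log2 difference 4.97, SE 0.20, limma adjusted p = 0.00443, against 3.25, SE 1.32 and 0.430 with all libraries). That library was the 1 knockout library where Copg2 was not high (5.32 FPKM, against 225 and 221 FPKM), so leaving it out removed most of the spread. Of 25 tested imprinted genes apart from the members, 0 passed limma, and their median log2 difference was 0.03. At an unadjusted p below 0.05, 1 stood higher and 2 lower, against 4.65% and 6.5% of all genes tested. Grb10, an adaptor that restrains growth factor signalling, was at 0.857 ± 0.416 FPKM in knockout and 0.913 ± 0.161 FPKM in wild type, and Mest, a paternally expressed hydrolase gene, at 0.621 ± 0.791 FPKM in knockout and 0.515 ± 0.348 FPKM in wild type (SD, n = 3 each). Of 23 tested fetal liver and oncofetal genes apart from the members, 0 passed limma, 1 stood higher and 2 lower at an unadjusted p below 0.05, and the median was -0.01. Plagl1, a regulator of several imprinted genes, was not analysed here.

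Of 23 tested genes that regulate Afp, H19, Gpc3 or imprinted loci, 0 passed limma, and the median was 0.06. At an unadjusted p below 0.05, 2 stood higher and 0 lower, against 4.65% and 6.5% of all genes tested. Zhx2 was at 2.66, 2.99 and 3.57 FPKM in knockout replicates 1 to 3, against 1.68, 4.51 and 3.88 FPKM in wild-type replicates 1 to 3. Zbtb20 was at 1.597, 3.46 and 3.03 FPKM in knockout replicates 1 to 3, against 2.24, 2.59 and 2.57 FPKM in wild-type replicates 1 to 3. The groups overlapped for both repressors (log2 differences -0.04 and 0.06, limma adjusted p = 0.974 and 0.948). Ctcf had a difference of 0.05, Trim28, a corepressor that maintains imprints, of 0.26, and Dnmt1, the maintenance DNA methyltransferase, of 0.04. The pair at an unadjusted p under 0.05, chosen after their values were seen, were Uhrf1, which guides Dnmt1 to replicated DNA (0.75, SE 0.20, limma adjusted p = 0.240), and Foxa2, a pioneer factor of the liver (0.46, SE 0.17, limma adjusted p = 0.390).

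**Figure D4:**
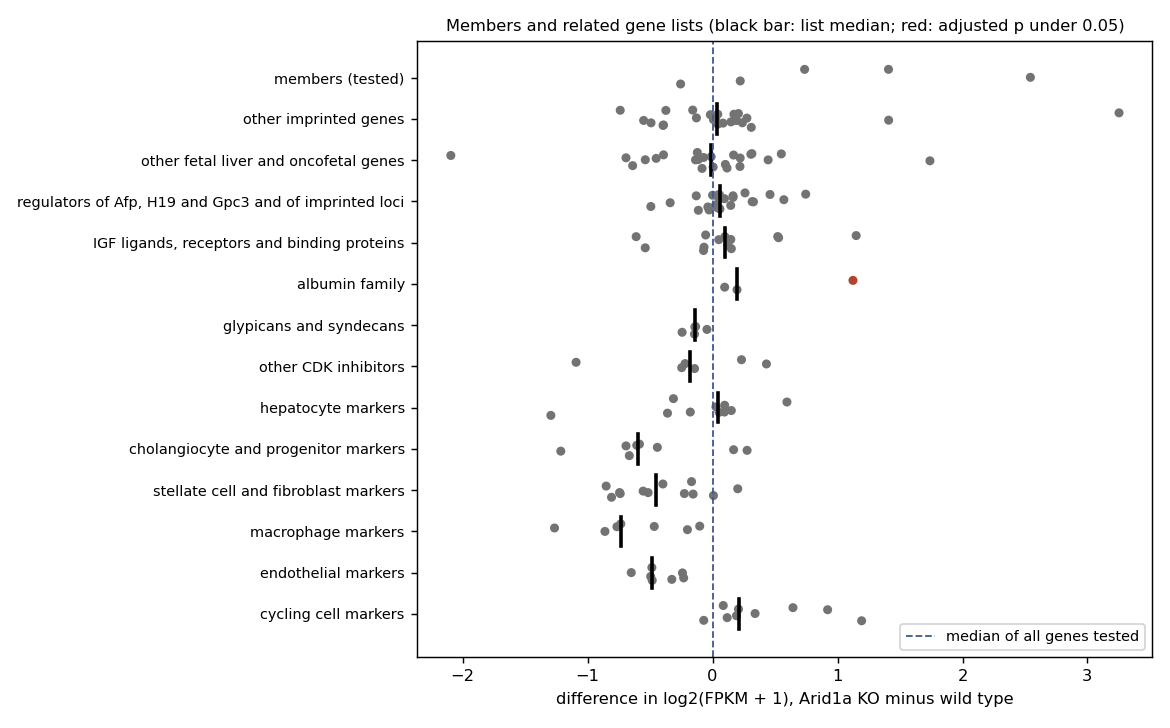
Difference in log2(FPKM + 1), knockout minus wild type, of the tested members and of each tested gene of the related lists; black bars are list medians and the dashed line is the median of all genes tested (0.0034). Afm is the 1 point past the threshold, and the imprinted, fetal liver and regulator lists are centred between -0.01 and 0.06.

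The members were read beside markers of the cell types that total liver RNA can hold. The 12 stellate cell and fibroblast markers summed to 147 to 248 FPKM in knockout and 220 to 323 FPKM in wild type, with a median log2 difference of -0.46. The 8 cholangiocyte and progenitor markers in the table summed to 227 to 426 FPKM in knockout and 148 to 397 FPKM in wild type (median -0.60). Their log2 differences were negative for 6 and positive for 2, Spp1 (0.28) and Prom1 (0.17). Spp1 made up most of the sum, at 229, 195 and 406 FPKM in knockout replicates 1 to 3. Sox9 was at 1.05 ± 0.203 FPKM in knockout and 3.83 ± 1.09 FPKM in wild type (SD, n = 3 each). Sox9, Spp1 and Prom1 were chosen after their values were seen. The 8 macrophage markers summed to 294 to 423 FPKM in knockout and 474 to 645 FPKM in wild type (median -0.73), and the 7 endothelial markers to 18.7 to 60.1 FPKM in knockout and 36.8 to 62.7 FPKM in wild type (median -0.48). The 10 hepatocyte markers summed to 46501 to 57512 FPKM in knockout and 43604 to 46793 FPKM in wild type (median 0.04). The 10 cycling cell markers summed to 81.4 to 132 FPKM in knockout and 46.3 to 84.8 FPKM in wild type (median 0.21), with Mki67 at a difference of 0.21 (limma adjusted p = 0.805). Every marker found in the table was detected in all 6 libraries. None of these lists had a gene past the threshold in limma. At an unadjusted p under 0.05, 3 of 7 tested macrophage, 2 of 12 stellate, 2 of 8 cholangiocyte and 1 of 10 hepatocyte markers were lower. No endothelial or cycling marker was lower at that level. Higher were 1 of 10 hepatocyte and 2 of 9 tested cycling markers. Over all genes tested, 6.5% were lower and 4.65% higher at that level. The part of cell composition in the members' differences was not tested.

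The genes whose centred profiles over the 6 libraries lay closest to that of a tested member, by Euclidean distance on log2(FPKM + 1), were as follows. Nearest to H19 were Cyp2a22 (distance 1.41), Isg15 (1.42) and Smad6 (1.63). Nearest to Afp were Gm37795 (0.30), 4732419C18Rik (0.35) and Rabepk (0.37). Igf2 had Oasl2 (1.13), Gm26917 (1.21) and 1700120C14Rik (1.21), Igf2r had Oaz2 (0.07), Pgrmc2 (0.08) and Klhl24 (0.08), and Cdkn1c had Synj1 (0.29), Zap70 (0.32) and Dnmt3a (0.41). No other member was among the 3 nearest of any tested member. The length of the member's own centred profile was 3.65 for H19, 2.44 for Igf2, 0.39 for Igf2r, 1.16 for Afp and 1.20 for Cdkn1c. The distances are therefore not comparable between members.

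Between 11280 and 11712 genes had at least 1 FPKM per library. Depth relative to wild-type replicate 1 came out at 0.898 to 1.15, estimated from low values. That estimate kept only ratios near 1, so it could not have shown a large difference in depth, and absolute depth is unknown. Summed FPKM was 827544 in wild-type replicate 1, against 1703320 and 1422470 in wild-type replicates 2 and 3. In the knockout libraries it ran from 1252040 to 1496320. Arid1a was at 6.61, 5.01 and 3.81 FPKM in knockout replicates 1 to 3, against 7.85, 5.48 and 5.98 FPKM in wild-type replicates 1 to 3, and a gene-level value in whole liver does not check the labels. Antisense transcripts are annotated over several members (Igf2os over Igf2, Airn over Igf2r, Gm43449 over Afp, Gm14582 and A630012P03Rik over Gpc3, and Gm44732 over Cdkn1c). The sources used here do not give the strand of the libraries, so reads of such pairs cannot be told apart.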

How the data were processed

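Total liver RNA was sequenced in 6 libraries, which were grouped by the genotype label and the sample titles. The authors deposited log2 FPKM values with 1 column per library; 0.000977 had been added before the log, so that -10 stands for an FPKM of 0. Subtracting that offset gave numbers of 6 significant digits for 100% of 60079 values checked (0% without), so FPKM was recovered first. The tools named, per the submitters' processing notes, are TopHat2 2.0.6 with Cufflinks, and the builds mm10 and GRCm38; the annotation is not given in the sources used here. An FPKM of 0, listed for 3664 values, can be a failed estimate.

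FPKM are not counts. Values were taken to log2(FPKM + 1), which understates the change of low genes, and genes with at least 1 FPKM in at least 3 of 6 libraries were tested with limma 3.58.1 in R 4.3.3 (eBayes with trend, two-sided, Benjamini-Hochberg over all genes tested). SEs are limma's; SDs are over libraries. Members under the filter have SEs and p from the unfiltered table. Exact permutation tests, for single genes, were two-sided with a smallest possible p of 0.1. The fit was tested on simulated data with independent noise and with changes placed only in genes at higher levels. Of the members only H19 lies that high, so this simulation does not cover the others. In 11 rows a gene name was repeated: all rows were tested, and a gene was read by name from its row with the highest mean. Positions and overlaps are from GENCODE M21, in which 14453 gene identifiers were found; miRNA and promoter sequences are from RefSeq (GRCm38.p6). Figures were drawn with matplotlib 3.10.9.

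The members and lists were chosen with earlier results of these data known. The genes named were the 8 members, 23 list genes named whatever their values, list genes past the threshold, and the 3 genes nearest in profile to each tested member; any other gene named was picked with its values in view. Alternatives were pseudocounts of 0.1 and 5, no filter, a filter at 5 FPKM, 2 other scalings, 2 other eBayes settings, a replicate block, a library number term, the 4 libraries L0602 to L0605 alone, and leaving out each library.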

Additional observations from a re-analysis of the deposited data

How the results depend on the processing

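Under the 17 alternatives, 0 members passed the threshold in limma. H19, Igf2, Igf2r, Afp, Gpc3, Peg3 and Dlk1 kept the sign of their difference under every alternative that gave them a value; Cdkn1c ranged from -0.12 to 0.56 with each library left out, with -0.12 without Arid1a_KO_DDC replicate 1 and -0.03 without WT_DDC replicate 2. Over all genes, 58 were called; a library number term called 92, and leaving out each library called 0 to 67, with 35 without WT_DDC replicate 1, 6 without WT_DDC replicate 2, 2 without WT_DDC replicate 3 and 0 without Arid1a_KO_DDC replicate 3. Of the other lists' genes, 1 was called; 0 were with no filter or with the 4 libraries L0602 to L0605 alone, and 0 to 2 with each library left out (Igfbp2 and Lyz2 without Arid1a_KO_DDC replicate 1, Copg2 without Arid1a_KO_DDC replicate 2).

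The replicate block called 0 genes over all genes and 0 of the lists' genes. Deviations from the group means of same-numbered libraries correlated at 0.35, 0.13 and 0.02 across genes for replicates 1, 2 and 3. The replicate 1 libraries also share the lack of Y-linked transcripts and library numbers apart from the others. Within replicates 2 and 3, same-numbered libraries have adjacent library numbers too. All of these lie in the run L0602 to L0605 and hold Y-linked transcripts, and Arid1a_KO_DDC replicate 2 correlated best with WT_DDC replicate 3 (0.26). The pseudocount set the size of low members' differences: Gpc3 was 1.39 with 0.1 and 0.28 with 5, Peg3 -0.70 and -0.08, and Igf2 2.37 and 0.60. Under the filter at 5 FPKM no value was had for Igf2, Afp, Gpc3, Cdkn1c, Peg3 or Dlk1. Without fragment counts, the counting error of values under 1 FPKM is unknown.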

Other observations

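Copg2, an imprinted gene beside Mest in the mouse that encodes a coat protein subunit, was at 225, 5.32 and 221 FPKM in knockout replicates 1, 2 and 3, against 7.87, 5.40 and 5.47 FPKM in wild-type replicates 1, 2 and 3. It was high in the knockout libraries other than replicate 2, the library with the most H19 and Igf2, and did not pass over all genes (log2 difference 3.25, SE 1.32, limma adjusted p = 0.430), but passed without that library (4.97, adjusted p = 0.00443). How fragments were assigned at this locus cannot be seen in FPKM, so the 225 and 221 FPKM may not be the level of Copg2 itself. The gene was chosen after its values were seen.

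Scd2, a desaturase of fatty acids that is more abundant in fetal than in adult mouse liver, was at 15.0, 22.6 and 11.1 FPKM in knockout replicates 1 to 3, against 9.46, 2.15 and 2.73 FPKM in wild-type replicates 1 to 3. Its groups did not overlap (log2 difference 1.74, SE 0.48, limma adjusted p = 0.248). Other genes of the fetal liver list lay in the opposite direction, such as Akr1b10, an aldo-keto reductase, at 3.71 ± 1.03 FPKM in knockout and 6.29 ± 1.15 FPKM in wild type (SD, n = 3 each; log2 difference -0.64, limma adjusted p = 0.314). Both were chosen after their values were seen.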
